A study of Mus musculus with 16 samples.

Results

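The genes described here are 9 genes of antigen presentation to CD4+ T cells, taken by name from the 53850 genes of the deposited table. They are the class II chains H2-Aa (ENSMUSG00000036594), H2-Ab1 (ENSMUSG00000073421) and H2-Eb1 (ENSMUSG00000060586), and the peptide loading chains H2-DMa (ENSMUSG00000037649) and H2-DMb1 (ENSMUSG00000079547). The others are the invariant chain gene Cd74 (ENSMUSG00000024610), the class II transactivator gene Ciita (ENSMUSG00000022504) and the costimulatory ligand genes Cd80 (ENSMUSG00000075122) and Cd86 (ENSMUSG00000022901). All 9 passed the filter on low values. RNA was sequenced from microglia of the brain cortex, isolated by fluorescence-activated cell sorting from young C57BL/6J mice. For 1 week the mice were fed control chow or chow holding PLX3397, which blocks the CSF1 receptor on which microglia depend. Males on control chow, males on PLX3397, females on control chow and females on PLX3397 gave 4 libraries each, and the series asks how the response to the inhibitor differed between the sexes. The labels carry no other genotype or agent, and the ages in days, the sorting gate and the origin of the 4 samples of a group from separate animals are not given in the sources used here. The p-values therefore measure the spread between these samples, which may be technical.

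A class II molecule is a pair of an alpha and a beta chain that displays peptides from the endosome. In the endoplasmic reticulum the pair is bound by the invariant chain, CD74, which fills the groove and directs it to the endosome. There H2-M, made of H2-DMa and H2-DMb1, exchanges the last fragment of CD74 for a peptide. CIITA binds no DNA itself and acts through factors that sit on the X and Y boxes upstream of these genes, and interferon gamma is the known inducer of Ciita. CD80 and CD86 give the second signal to T cells through CD28. C57BL/6 mice lack a functional H2-Ea gene, so H2-Eb1 has no partner chain at the surface in this strain. Resting microglia are known for low class II, while dendritic cells, B cells and macrophages at the borders of the brain carry more, so a few such cells could hold a large share of these reads in a sort.

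Values are the deposited normalised read counts. A change is the difference between group means of log2(value + 1), with its SE, and adjusted p-values come from limma with Benjamini-Hochberg adjustment over the 19594 genes tested. A gene is said to rise or fall where the adjusted p was under 0.05. A fold is on the same log2(value + 1) scale, which understates the change of low genes. The libraries summed to between 32600000 and 44200000 normalised counts. From the step between low values, the reads behind a library were estimated at 42200000 to 78400000 in male controls, 29700000 to 39000000 in males on PLX3397, 29400000 to 38700000 in female controls and 22100000 to 72300000 in females on PLX3397. The summed level of 8 microglial markers ran from 2054080 to 2545880 in control libraries of both sexes and from 972611 to 1792690 on PLX3397. A pair of libraries stood apart in earlier work on these data. Male control sample 4 had an Xist value of 516 where the other males had 14.7 to 31.4, and male PLX3397 sample 3 had an S100a8 value of 14419 where the other males on PLX3397 had 2020.5 to 3184. Within this set of genes, female PLX3397 sample 2 stood apart, as its values below show. In bulk libraries, fewer cells of a type and less RNA per cell cannot be told apart.

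On PLX3397 the genes of this set moved in opposite directions. Cd74 rose in both sexes, by 3.61-fold in males and 2.66-fold in females, while H2-Eb1, H2-DMa and H2-DMb1 fell in males. Cd86 rose in females. In males 1 of the 9 genes was higher and 3 were lower, where 4.16% of all genes tested were higher and 7.52% lower. That balance turned with scaling: with equal library totals 6.85% were higher and 4.66% lower. In females 2 were higher and 0 lower, where each direction held 2.67% of all genes tested. The median change of the 9 was -0.70 in males and -0.34 in females, beside 0.02 and -0.003 over all genes tested. At an unadjusted p under 0.05 the counts were 6 in males, where 23.8% of all genes tested passed, and 4 in females, where 17.1% did. Without female PLX3397 sample 2, 5 of the 9 were called in males and 4 in females, where 11.4% and 4.12% of all genes tested were called. That library was singled out after its values of these genes were seen, which favours such calls.

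**Figure D1:**
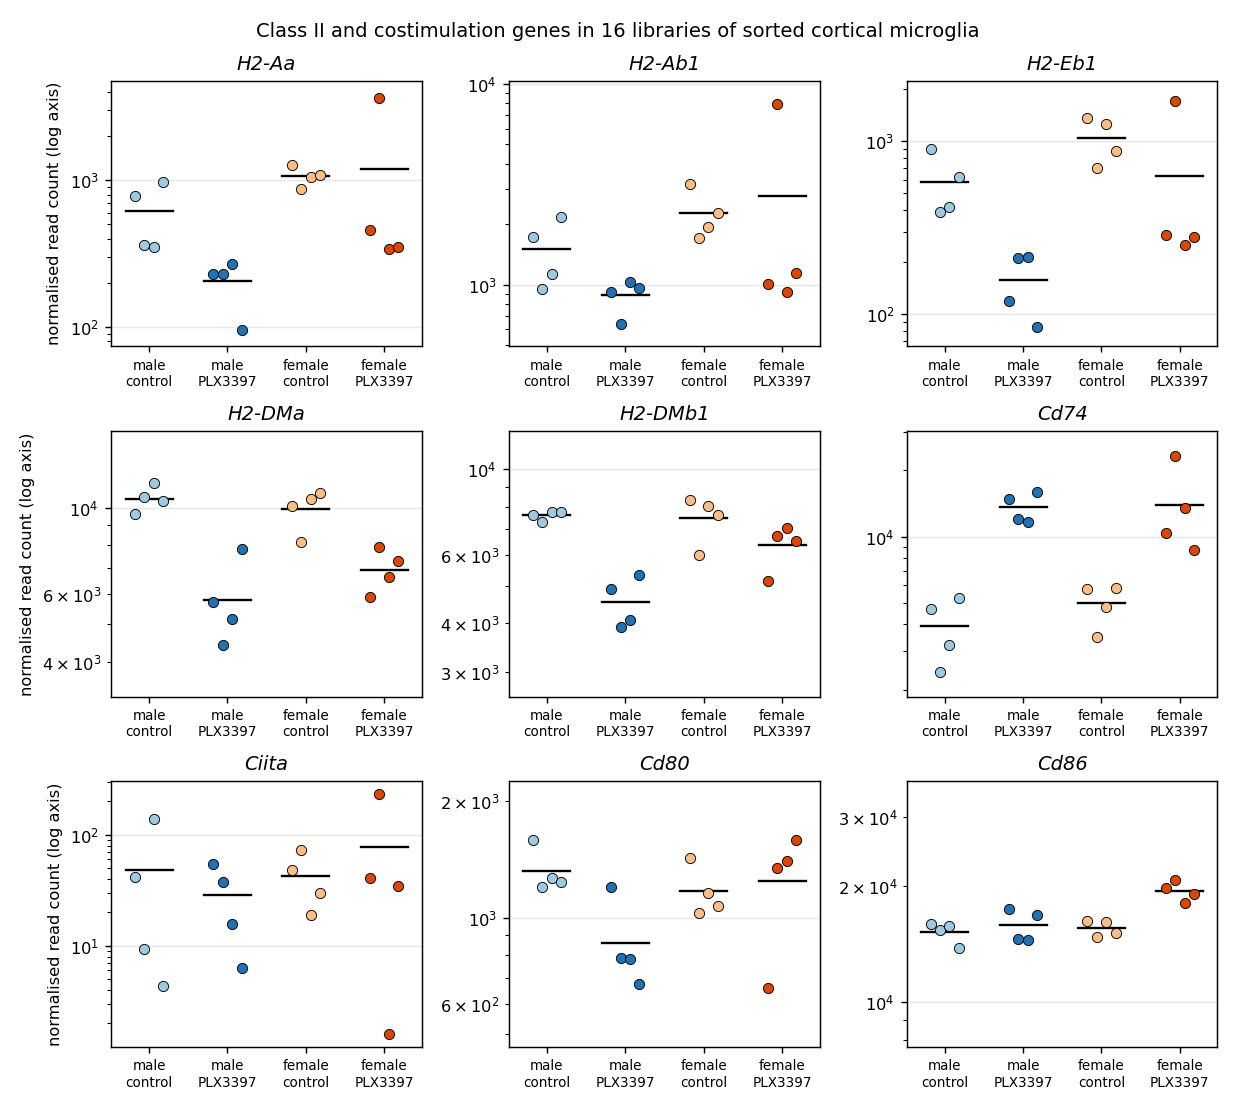
Normalised read counts of the 9 genes (vertical log axes) in each of the 16 libraries, with 1 point per library, placed from left to right by sample number, and a black line at each group mean. Cd74 lies higher in every PLX3397 library than in any control library of the same sex, while female PLX3397 sample 2 lies alone at the top for H2-Aa (3667), H2-Ab1 (7961) and H2-Eb1 (1719.8).

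The class II chains varied widely between libraries of a group. H2-Aa, the alpha chain of I-A, had values of 777, 365, 353 and 969 in male controls and 230.0, 228, 270.4 and 95.4 in males on PLX3397. Females had 1267, 876, 1062 and 1086 on control chow and 461, 3667, 338 and 350.2 on PLX3397. Every male on PLX3397 thus lay below every male control, and 3 of the 4 females on PLX3397 lay below every female control, while the other lay above all of them. The change of H2-Aa was -1.54 ± 0.602 in males (adjusted p = 0.122) and -0.67 ± 0.602 in females (adjusted p = 0.655). Neither passed the test.

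H2-Ab1, the beta chain of I-A, had values of 1736, 949, 1132 and 2181 in male controls and 923, 641, 1030.2 and 960.5 in males on PLX3397. The female values were 3192, 1704, 1946 and 2288 on control chow and 1015, 7961, 917 and 1146 on PLX3397. The male groups overlapped, and the females showed the same split as for H2-Aa. The change was -0.70 ± 0.513 in males (adjusted p = 0.453) and -0.38 ± 0.513 in females (adjusted p = 0.794).

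H2-Eb1, the beta chain of I-E, had values of 908, 392, 418 and 621 in male controls and 119.6, 212, 215 and 84.6 in males on PLX3397, with no overlap. In females it had 1371, 701, 1261 and 876 on control chow and 286, 1719.8, 252 and 279 on PLX3397. It fell in males by 1.90 ± 0.516 (adjusted p = 0.0229), a 3.74-fold lower level, and changed by -1.23 ± 0.516 in females (adjusted p = 0.220). The male call was lost without male control sample 1 (adjusted p = 0.0777) or 4 (0.0548), or without male PLX3397 sample 1 (0.0566) or 4 (0.0657). It was also lost without male control sample 4 and male PLX3397 sample 3 together (adjusted p = 0.0622).

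The female values of the 3 chains turned on 1 library. Female PLX3397 sample 2 held 7.95 times the H2-Aa value, 6.95 times the H2-Ab1 value and 6.01 times the H2-Eb1 value of the next highest library of its group. Without it, the female change was -1.48 for H2-Aa (adjusted p = 0.0378), -1.12 for H2-Ab1 (adjusted p = 0.0310) and -1.90 for H2-Eb1 (adjusted p = 0.00581). Removing it also lowered the shared estimate of spread, and H2-Aa passed the test in males (adjusted p = 0.00910). The library was singled out for its high values of these same genes, so these adjusted p-values lean low and are not a fair test. The 3 other females on PLX3397 lay between 338 and 461 for H2-Aa, and those of males on PLX3397 between 95.4 and 270.4.

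The promoters of the class II chains are shown because their X and Y boxes are the sites through which CIITA acts. RefSeq (build GRCm38.p6) gave a promoter window for 5 of the 9 genes, H2-Aa, H2-Eb1, H2-DMa, H2-DMb1 and Cd80, and the 250 bases upstream of each start were searched on both strands. The pattern was GNAAC, a core shared by X boxes, then 20 to 30 bases, then the Y box TGATTGG. It was found upstream of H2-Aa, H2-Eb1 and H2-DMb1, and in 89 (0.271%) of the 32851 windows of the same length in RefSeq's table. The Y box alone was in 2375 of them (7.23%). The 150 bases before each start follow, 5′ to 3′ on the strand of the gene, with both boxes in capitals. They lie at chr17:34287824-34287973 (minus strand) for H2-Aa, chr17:34305717-34305866 (plus strand) for H2-Eb1 and chr17:34153041-34153190 (plus strand) for H2-DMb1.
H2-Aa: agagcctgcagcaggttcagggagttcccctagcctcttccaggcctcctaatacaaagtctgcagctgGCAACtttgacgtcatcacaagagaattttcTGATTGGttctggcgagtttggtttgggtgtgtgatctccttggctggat
H2-Eb1: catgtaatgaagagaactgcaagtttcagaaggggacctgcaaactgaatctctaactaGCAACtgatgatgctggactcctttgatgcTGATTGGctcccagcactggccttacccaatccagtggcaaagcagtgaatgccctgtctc
H2-DMb1: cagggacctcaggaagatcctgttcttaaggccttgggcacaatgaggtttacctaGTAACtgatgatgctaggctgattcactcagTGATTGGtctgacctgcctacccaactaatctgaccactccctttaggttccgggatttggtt
Between the boxes lie 26 bases in H2-Aa, 25 in H2-Eb1 and 26 in H2-DMb1. The pattern was also found upstream of H2-Oa and H2-Ob, which encode the inhibitor of H2-M, with 26 and 23 bases between. In the windows of H2-DMa and Cd80 these letters were not found, and that of H2-DMb2 held the Y box alone. Such a match is a description of the letters.

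The peptide loading chains had a coefficient of variation of 2.96% to 25.4% within groups, where the class II chains had 14.9% to 136%. H2-DMa had values of 9609, 10629, 11592 and 10371 in male controls and 5695, 4416, 5142 and 7822 in males on PLX3397. Females had 10106, 8145, 10520.0 and 10891 on control chow and 5871, 7894, 6604 and 7269.8 on PLX3397. In each sex every PLX3397 library lay below every control library. H2-DMa fell in males by 0.90 ± 0.150 (adjusted p = 0.000681), or 1.87-fold, and changed by -0.52 ± 0.150 in females (adjusted p = 0.0542). The female value passed the test in 9 of 28 alternatives.

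H2-DMb1, the partner of H2-DMa, had values of 7630.3, 7282, 7740.3 and 7773 in male controls and 4906, 3907, 4068 and 5319 in males on PLX3397, again with no overlap. The female values were 8298, 5997, 8046 and 7601 on control chow and 5152, 6729, 7040.0 and 6509 on PLX3397, where the groups overlapped. It fell in males by 0.75 ± 0.127 (adjusted p = 0.000763) and changed by -0.23 ± 0.127 in females (adjusted p = 0.381). The male falls of H2-DMa and H2-DMb1 were called under all 28 alternatives. H2-DMb1 has a near-identical neighbour, H2-DMb2, and reads could be split between them in counting, so the level of either is uncertain. H2-DMb2 fell in males by 0.89 ± 0.239 (adjusted p = 0.0223) and changed by -0.75 ± 0.239 in females (adjusted p = 0.0846). That male call was lost without male control sample 3 (adjusted p = 0.0741) or 4 (0.0681), or male PLX3397 sample 2 (0.0794) or 3 (0.0623). It was also lost without male control sample 4 and male PLX3397 sample 3 together (0.143) and with equal library totals (0.0516).

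Cd74, whose product escorts new class II pairs, went the other way. Its values were 4692, 2428, 3222 and 5255 in male controls and 14802, 11966, 11635 and 15863 in males on PLX3397. In females they were 5753, 3496, 4799 and 5831 on control chow and 10343, 23206, 13415 and 8698 on PLX3397. No PLX3397 library overlapped the controls of its sex, and female PLX3397 sample 2 was the highest of all 16. The rise was 1.85 ± 0.281 in males (adjusted p = 0.000310) and 1.41 ± 0.281 in females (adjusted p = 0.00571), and both were called under all 28 alternatives. Leaving out each library in turn gave 1.13 to 1.60 in females, the lowest without female PLX3397 sample 2.

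**Figure D2:**
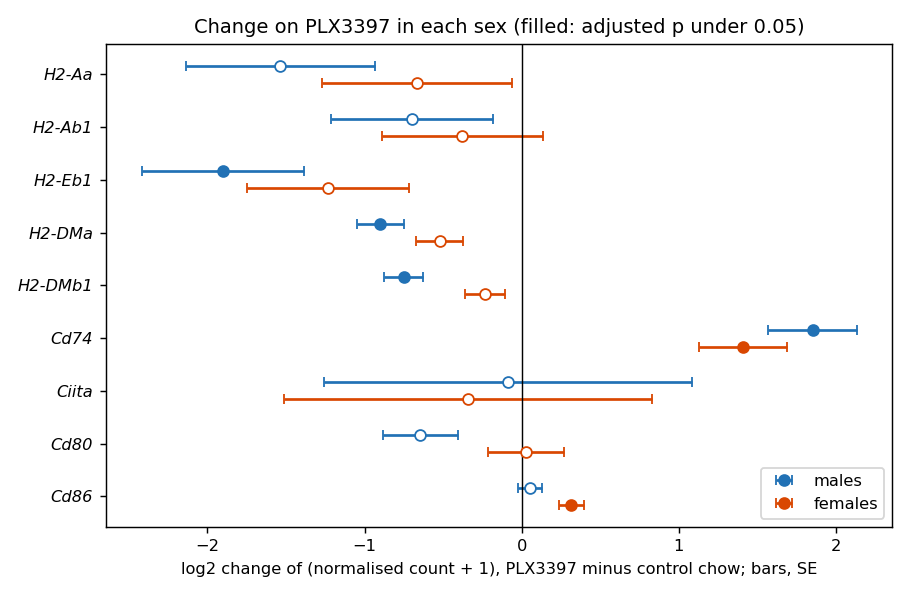
Change of each gene on PLX3397 (horizontal axis, log2 of normalised count + 1, PLX3397 minus control chow) in males and females, with SE as bars and filled points where the adjusted p was under 0.05. Cd74 sits to the right of 0 in both sexes (1.85 and 1.41), and H2-Eb1, H2-DMa and H2-DMb1 sit to the left with filled points in males.

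The ratio of Cd74 to H2-Ab1 and to H2-Aa is given here library by library. Cd74 rose in both sexes, while H2-Aa and H2-Ab1 passed the test in neither. A rise of Cd74 alone raises such a ratio, so it does not show that these chains changed. The ratio of Cd74 to H2-Ab1 ran from 2.41 to 2.85 in male controls and from 1.80 to 2.55 in female controls. On PLX3397 it ran from 11.3 to 18.7 in males and from 2.91 to 14.6 in females. The female PLX3397 library at 2.91 was sample 2, where both genes were highest. The ratio of Cd74 to H2-Aa was 5.42 to 9.13 in male controls and 43.0 to 166 in males on PLX3397. In females it was 3.99 to 5.37 on control chow and 6.33 to 39.7 on PLX3397. These are ratios of normalised counts, not corrected for gene length, so they compare libraries and not the amounts of the transcripts.

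**Figure D3:**
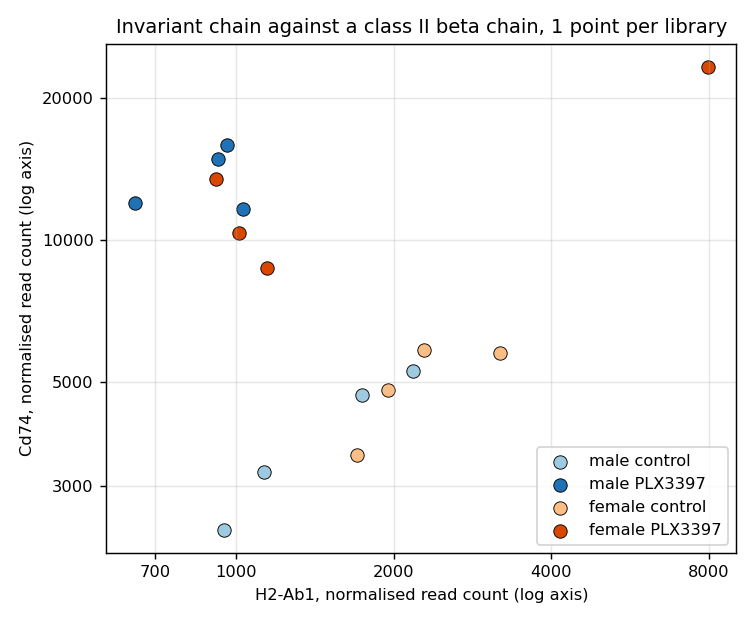
Cd74 against H2-Ab1 as normalised read counts (log axes), 1 point per library, coloured by group. The 8 control libraries lie along the bottom with Cd74 between 2428 and 5831, 7 PLX3397 libraries lie above them at H2-Ab1 values of 641 to 1146, and female PLX3397 sample 2 lies alone at the upper right.

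Ciita, the transactivator, had low and scattered values, some near the step of 0.517 to 1.89 between the lowest values of a library. It had values of 41.5, 9.26, 138 and 4.36 in male controls and 54.1, 37.6, 15.6 and 6.25 in males on PLX3397. In females it had 48.6, 73.3, 19.1 and 30.0 on control chow and 40.5, 233, 1.60 and 34.3 on PLX3397. All 4 groups overlapped, and the highest value was again that of female PLX3397 sample 2. The change was -0.09 ± 1.17 in males (95% interval -2.57 to 2.39, adjusted p = 0.980) and -0.34 ± 1.17 in females (95% interval -2.82 to 2.14, adjusted p = 0.932). A change of 2-fold either way lay within both intervals.

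The costimulatory ligands differed from each other. Cd80 had values of 1590.4, 1202, 1269 and 1233 in male controls and 1202, 787, 782 and 676 in males on PLX3397. Females had 1426, 1029, 1158 and 1070.4 on control chow and 657, 1343, 1402 and 1583 on PLX3397. The male groups just parted, and the females on PLX3397 held both the lowest and the highest value of their sex. The change was -0.64 ± 0.241 in males (adjusted p = 0.103) and 0.03 ± 0.241 in females (adjusted p = 0.976). The male value passed without male PLX3397 sample 1 (adjusted p = 0.0420), without female PLX3397 sample 1 (adjusted p = 0.0231) or with library weights (adjusted p = 0.0484).

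Cd86 varied by 4.79% to 9.51% (coefficient of variation) within groups. It had values of 15927, 15389, 15748 and 13827 in male controls and 17405, 14537, 14519.5 and 16789.7 in males on PLX3397. The female values were 16246, 14764, 16130.0 and 15073 on control chow and 19684, 20663, 18056 and 19014 on PLX3397. The 4 females on PLX3397 lay above the other 12 libraries, which overlapped. Cd86 rose in females by 0.31 ± 0.0789 (adjusted p = 0.0252), or 1.24-fold, and changed by 0.05 ± 0.0789 in males (adjusted p = 0.75). The female call was lost without female control sample 2 (adjusted p = 0.0701) or 4 (0.0721), or female PLX3397 sample 1 (0.0701) or 2 (0.0859). It was also lost without a filter on low values (0.0584). With equal library totals, which move the median of all genes in males from 0.02 to 0.18, the male value became 0.21 and passed (adjusted p = 0.0291). It also passed with quantile normalisation, where that median was -0.01 (0.26, adjusted p = 0.00742), and with voom weights (0.21, adjusted p = 0.0203).

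Where every library of a group lay on one side of every library of the other was counted as well. In males this held for 6 of the 9 genes, Cd74, H2-Aa, H2-DMa, H2-Eb1, Cd80 and H2-DMb1, where it held for 17.6% of all genes tested. In females it held for 3, Cd74, Cd86 and H2-DMa, where it held for 10.4% of all genes tested.

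Females and males were then compared directly. On control chow 0 of the 9 genes differed, where 0.0663% of all genes tested did, and 0 of the 9 had an unadjusted p under 0.05, where 5.19% of all genes tested did. The control values of H2-Aa ran higher in females (1073 ± 160.0, SD, n = 4) than in males (616 ± 307, SD, n = 4), by 0.93 ± 0.602, which did not pass the test with limma (adjusted p = 0.976). On PLX3397, Cd86 was higher in females by 0.29 ± 0.0789 (adjusted p = 0.0413) and H2-DMb1 by 0.48 ± 0.127 (adjusted p = 0.0384), where 4.28% of all genes tested were higher in females and 1.15% lower. With equal library totals 0.992% were higher and 1.90% lower. Under the scaling as deposited, 7 of the 8 microglial markers were also higher in females on PLX3397, with a median difference of 0.56. Of 8 neutrophil markers 6 were lower, with a median of -4.35. The part of library makeup in these differences was not tested. H2-Aa (1.80 ± 0.602, adjusted p = 0.0940) and H2-Eb1 (1.55 ± 0.516, adjusted p = 0.0921) did not pass. For 3 of the 9 genes, Cd86, H2-Aa and H2-Eb1, every female on PLX3397 lay above every male on PLX3397. The share of all genes tested that parted in this way was not counted, so this count cannot be weighed. At an unadjusted p under 0.05 by limma, 4 of the 9 genes passed here, where 22.0% of all genes tested did. The call of H2-DMb1 was lost in 15 of 28 alternatives and that of Cd86 in 19 of 28. Leaving out female PLX3397 sample 2 ended both, at adjusted p = 0.0864 for H2-DMb1 and 0.103 for Cd86, and so did equal library totals, at 0.109 and 0.363. So did leaving out male PLX3397 sample 2 (0.127 for each) or 3 (0.107 and 0.119). Both calls were also lost without female PLX3397 sample 3 (0.103 and 0.0555) or 4 (0.0764 and 0.0672), or male control sample 1 (0.0511 and 0.0532) or 2 (0.0517 and 0.0573).

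The difference between the female and the male response was tested by itself and was called for 0 of the 9 genes and for 0% of all genes tested. By limma, 2 of the 9 had an unadjusted p under 0.05, where 10.3% of all genes tested did. These were H2-DMb1, whose response was higher in females by 0.52 ± 0.180 (adjusted p = 0.322), and Cd86, higher by 0.26 ± 0.112 (adjusted p = 0.429). For Cd74 the difference was -0.44 ± 0.397, with a 95% interval of -1.28 to 0.40. A response that passed in 1 sex and not in the other was therefore not shown to differ between the sexes for any of the 9.

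The class II chains varied alike. Over the 16 libraries H2-Aa was most like H2-Eb1 (Pearson r = 0.947 of log2(value + 1)) and H2-Ab1 (r = 0.910), and it was the closest gene of each of them. H2-DMa and H2-DMb1 had r = 0.913 with each other. Their closest genes were Cmtm7 (r = 0.972) for H2-DMa, and Arpc4 (r = 0.969) and Lpcat2 (r = 0.969) for H2-DMb1. Cd74 was closest to Axl (r = 0.945), a receptor tyrosine kinase for debris-binding ligands, then to Mt1 (r = 0.939) and Fam20c (r = 0.938). Cd86 was closest to Nfkbib (r = 0.929), Cd80 to Vps72 (r = 0.864) and Ciita to Stam2 (r = 0.799). These are descriptions over libraries that share 4 group means, with the highest of 19594 genes picked for each.

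With the group means subtracted, Cd74 and the class II chains ran together. The r of Cd74 with H2-Ab1 was then 0.81, where it was 0.04 over all 16 libraries, and its r with H2-Aa was 0.70, where it was -0.17. With H2-Eb1 it was 0.62, where it was -0.39. Gbp2, an interferon-induced GTPase gene, was among the 5 closest genes of H2-Ab1 (r = 0.876) and of Cd74 (r = 0.843). Female PLX3397 sample 2 was the highest of its group for Cd74, H2-Aa, H2-Ab1, H2-Eb1 and Gbp2. It can carry much of these correlations, which were not computed without it.

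Gbp2 and 6 other interferon-induced genes were then looked up in that library, and all 7 were chosen after values were seen. Gbp2 had a value of 1633 in female PLX3397 sample 2 and 328, 381 and 259 in samples 1, 3 and 4 of its group. The chemokine gene Cxcl9 had 320.1 there and 27.3, 2.38 and 6.39 in the others. Gbp4 had 585 there and 23.3, 40.3 and 74.8 in the others. All 7 genes summed to 4046 there and to 847, 1198 and 721 in the others, where female controls had 376 to 956. In males their sum was 513 to 989 on control chow and 1116 to 1487 on PLX3397, without overlap. Of the 7, 0 were called in males and 1 rose in females. Ifng, the interferon gamma gene itself, was listed at 0 in all 16 libraries. The library had the fewest estimated reads of all, 22100000. Of the 10 dendritic cell markers, 3 were at 0 there, Cd209a among them, and their summed level was 19585, where the other libraries of the group had 1 or 2 at 0 and sums of 16647 to 17860. Most of each sum was 1 gene, Fscn1 (11426 to 12894 in this group). The part of these values in the class II result was not tested.

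**Figure D4:**
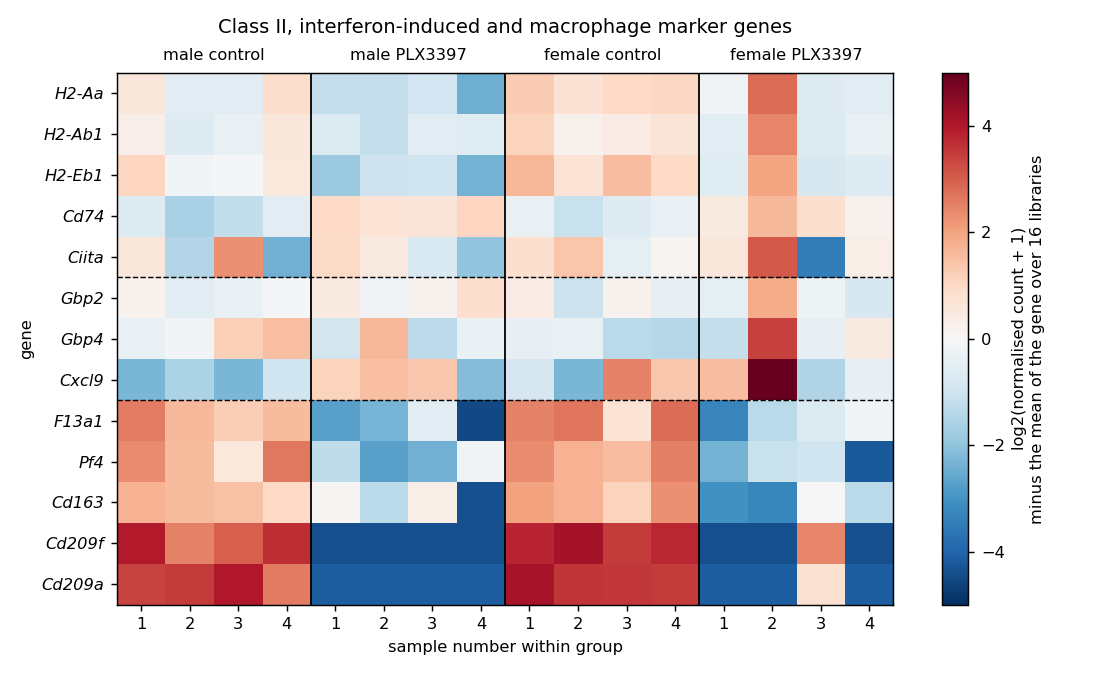
Colour shows log2(normalised count + 1) of each gene minus its mean over the 16 libraries, with libraries in columns by group and sample number and genes in rows. The upper block holds class II genes and their regulator, the middle block interferon-induced genes and the lower block 5 markers of border-associated macrophages and dendritic cells, picked after values were seen from those that fell. Female PLX3397 sample 2 is red through the upper and middle blocks, and these 5 markers are red in the 8 control libraries and mostly blue on PLX3397.

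Of 38 other genes of the pathway that were listed, 37 were in the table and 31 passed the filter. In males 3 of them rose, 6 fell and 22 did not pass, with a median change of -0.14. In females 5 rose, 2 fell and 24 did not pass, with a median of 0.04. H2-Ea matched no row of the table.

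Among 6 genes of processing and turnover, Cd83 and Ifi30 rose in both sexes. Cd83, whose product keeps class II and CD86 at the surface by opposing their ubiquitination, had 9703, 9171, 9094 and 8590.0 in male controls and 39519, 29006, 38986 and 26079 in males on PLX3397. In females it had 9623, 7802, 9424 and 8457 on control chow and 42866, 33488, 26575 and 32058 on PLX3397. The groups were far apart in each sex, with rises of 1.85 ± 0.145 in males (adjusted p = 5.83e-07) and 1.92 ± 0.145 in females (adjusted p = 9.24e-07). Ifi30, a thiol reductase of the endosome, rose by 0.73 ± 0.172 in males (adjusted p = 0.00980) and 0.79 ± 0.172 in females (adjusted p = 0.0103). Ctss, the protease that trims CD74, rose in females by 0.52 ± 0.107 (adjusted p = 0.00693) and changed by 0.20 ± 0.107 in males (adjusted p = 0.263). Lgmn, an endosomal protease, fell in males by 0.64 ± 0.127 (adjusted p = 0.00285) and changed by -0.29 ± 0.127 in females (adjusted p = 0.248).

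Of 7 other costimulatory and coinhibitory ligands tested, Cd274 rose and Cd276 and Vsir fell in both sexes. Cd274, which encodes the inhibitory ligand PD-L1, had 666, 667, 341 and 453 in male controls and 1711, 1347, 1141 and 1395 in males on PLX3397. Females had 512, 530.2, 719 and 426 on control chow and 1399, 1973, 881 and 802 on PLX3397. The groups did not overlap in either sex, and the rise was 1.43 ± 0.280 in males (adjusted p = 0.00257) and 1.14 ± 0.280 in females (adjusted p = 0.0229). Without female PLX3397 sample 2 the female value had an adjusted p of 0.0769. The female call was also lost without female control sample 1 (0.0597), 2 (0.0528) or 4 (0.0736) or female PLX3397 sample 1 (0.0727). A fit to the groups compared only lost it too (0.0647).

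Cd276, which encodes B7-H3, fell by 1.52 ± 0.236 in males (adjusted p = 0.000395) and 1.15 ± 0.236 in females (adjusted p = 0.00708). Vsir, which encodes the inhibitory ligand VISTA, fell by 0.95 ± 0.117 in males (adjusted p = 4.71e-05) and 0.43 ± 0.117 in females (adjusted p = 0.0437). The female call of Vsir was lost in 15 of 28 alternatives. Tnfsf9, the 4-1BB ligand gene, rose in females by 1.16 ± 0.320 (adjusted p = 0.0434), a call lost in 18 of 28, and changed by -0.34 ± 0.320 in males (adjusted p = 0.570). Cd40 changed by 0.29 ± 0.481 in males and -0.13 ± 0.481 in females. Tnfsf4, Cd70 and Vtcn1 were listed at 0 in all 16 libraries.

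**Figure D5:**
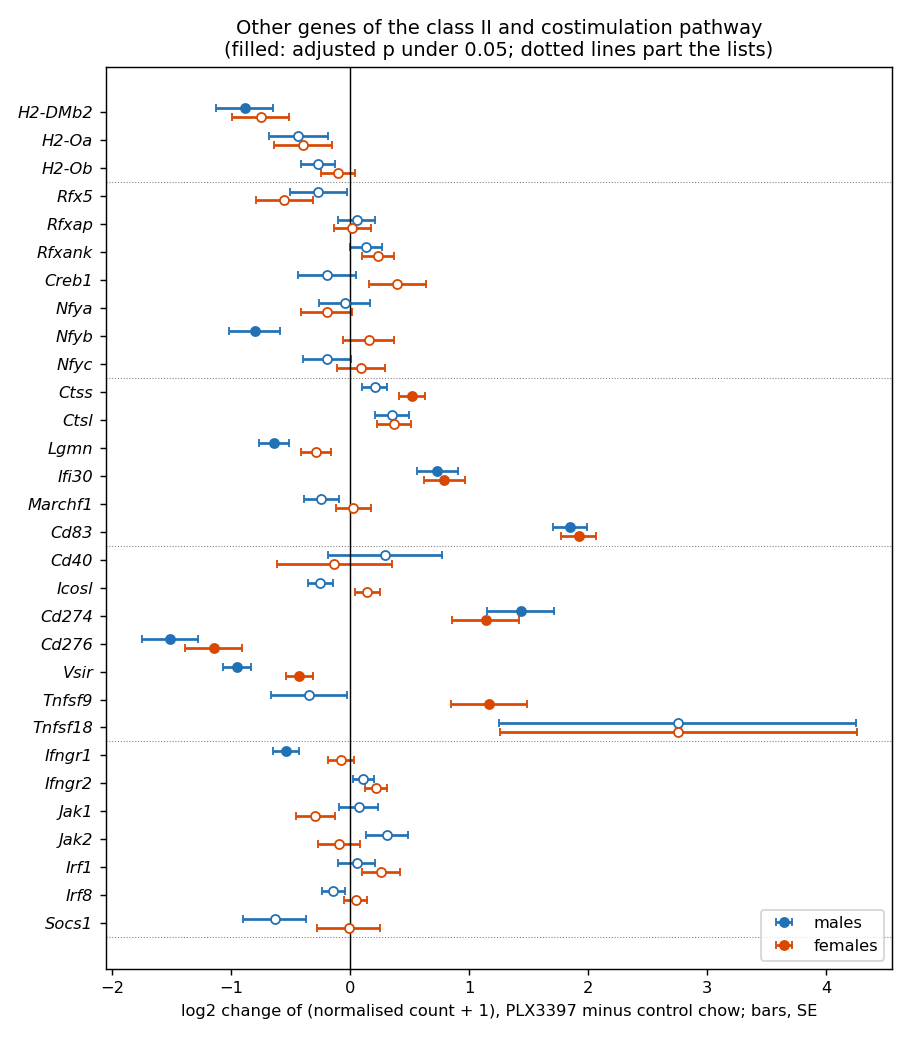
Change of other pathway genes on PLX3397 (horizontal axis, log2 of normalised count + 1, PLX3397 minus control chow) in males and females, with SE as bars, filled points where the adjusted p was under 0.05 and dotted lines between the lists. Cd83 and Cd274 lie to the right of 0 and Cd276 and Vsir to the left in both sexes, all with filled points.

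The factors that act on the X and Y boxes formed a list of 7. Of these, Nfyb, a subunit of the Y box factor, fell in males by 0.80 ± 0.214 (adjusted p = 0.0210), and 0 changed in females. The Nfyb call was lost without male control sample 2 (adjusted p = 0.0527) or 4 (0.0725) or male PLX3397 sample 1 (0.0551), and with equal library totals (0.0941). It was also lost with voom weights (0.121) and without male control sample 4 and male PLX3397 sample 3 together (0.0896). Rfx5, of the X box factor, changed by -0.27 ± 0.243 in males (adjusted p = 0.561) and -0.55 ± 0.243 in females (adjusted p = 0.248). Among 8 genes of interferon gamma signalling, Ifngr1, a chain of the receptor, fell in males by 0.54 ± 0.109 (adjusted p = 0.00339), and 0 changed in females.

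Markers of other cells that can carry class II moved with the chow. Of 10 markers of border-associated macrophages, 7 fell and 0 rose in males and 5 fell and 0 rose in females. Their summed level was 26230 to 29454 in male controls and 19579 to 24022 in males on PLX3397. In females it was 27529 to 34170 on control chow and 20156 to 23326 on PLX3397. Stab1, a scavenger receptor gene, made up 85.9% to 95.6% of this sum, and its male fall (-0.30 ± 0.0930, adjusted p = 0.0484) was lost in 18 of 28 alternatives. The median change of the 10 markers was -3.10 in males and -3.02 in females. F13a1 had 869.9, 453, 348 and 443 in male controls and 21.7, 28.9, 98.9 and 5.55 in males on PLX3397. The 4 males on PLX3397 had Cd209f and Lyve1 at 0. F13a1 and Pf4 were called in both sexes under all 28 alternatives.

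Of 10 markers of dendritic cells, 2 rose and 2 fell in males and 1 rose and 1 fell in females. Itgax, an integrin gene of dendritic cells that activated microglia also express, rose in both, from 327 ± 253 to 3557 ± 505 in males and from 349.8 ± 124 to 3417 ± 971 in females (SD, 4 libraries each). Flt3, a cytokine receptor gene, rose in males by 1.08 ± 0.332 (adjusted p = 0.0443), a call lost in 13 of 28 alternatives, while Cd209a and the actin-bundling gene Fscn1 fell. The summed level of the 10 was 16258 to 18036 in male controls and 11652 to 18698 in males on PLX3397, and 15511 to 30178 and 16647 to 19585 in the same female groups. Most of this sum was Fscn1, with means of 14701 in male controls and 8662 in males on PLX3397, and 19569 and 12162 in the same female groups. Cd209a had 179, 198, 276 and 105 in male controls and was listed at 0 in all 4 males on PLX3397. The female values were 307, 205, 200.04 and 198 on control chow, and on PLX3397 it had 28.7 in sample 3 and 0 in samples 1, 2 and 4. Cd209a, F13a1 and Pf4 were lower in every PLX3397 library than in any control library of its sex, but these genes were picked from the markers that fell. Other markers of the macrophage and dendritic cell lists had higher female means on PLX3397 than on control chow. Ccl24 went from 241.5 to 380.3, Ms4a7 from 148.8 to 156.3 and Flt3 from 89.9 to 121.5, and none of these was called in females. The part of border-associated macrophages and dendritic cells in the changes of H2-Aa, H2-Ab1 and H2-Eb1 was not tested.

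Of 6 B cell markers tested, 2 fell in males and 1 in females, with summed levels of 24122 to 30351 and 17035 to 18022 in male controls and males on PLX3397, and 26101 to 32030 and 19056 to 22347 in females. Ighm made up most of this, while Pax5 was listed at 0 in 14 of the 16 libraries. Of 4 T cell markers tested 0 changed, with summed levels of 173.5 to 250.4 in male controls, 153 to 285 in males on PLX3397, 176 to 268 in female controls and 141 to 171 in females on PLX3397. Cd3e was listed at 0 in all 16 libraries. Of 6 monocyte markers tested, 1 rose in males and 0 changed in females, with summed levels of 452 to 702 in male controls, 943 to 6549 in males on PLX3397, 477 to 673 in female controls and 439.9 to 1066 in females on PLX3397. The markers in this sum went different ways. In males the mean of Chil3 went from 145 to 1732 (407 to 4879 on PLX3397) and that of Ly6c2 from 20.4 to 472. The mean of Plac8 went from 28.4 to 22.3 in males. That of Ccr2 went from 283 to 165 in males and from 392 to 184 in females. Of 8 neutrophil markers, 7 rose in males and 5 in females, with summed levels of 305 to 3194 in male controls, 9780.0 to 69621 in males on PLX3397, 0 to 4.97 in female controls and 802 to 3076 in females on PLX3397. The part of these cells in the result was not tested.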

How the data were processed

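RNA of sorted cortical microglia was amplified from 500 pg with a low-input kit, per the labels' protocols. The deposited table holds a signal per gene and library, by its name a normalised read count, whose scaling varied between libraries and a little between genes. The formula is not given in the sources used here. Without giving roles, the submitters' processing notes list the build GRCm39, Salmon 1.5.2, featureCounts 2.0.1, Subread, STAR 2.7.9a and bcl2fastq 2.19.1. Whole reads were not recovered, so no count model was used. All 16 libraries were used.

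The filter kept genes that reached 10 in 4 or more libraries. Their log2(value + 1) entered limma 3.58.1 (trend, 1 mean per group, two-sided) in R 4.3.3, a procedure tested on simulated data. Symbols matched 51029 of 53850 identifiers. Named were the 9 genes, genes of the lists and the 5 genes closest to each of the 9. The genes and lists were chosen with earlier results of these data known, and promoter patterns were searched after the sequences were seen. Promoters came from RefSeq (GRCm38.p6), and figures were drawn with matplotlib 3.10.9. Some genes of the lists are not reported here, though they are counted in them.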

Additional observations from a re-analysis of the deposited data

Results flagged for a closer look

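In 4 of the 36 combinations of a gene and a group, a library lay farther from the others than the critical value of Dixon's test for 4 samples allows. Chance gives about 1 in 20 where values are normally distributed, and the test was run on values without a log. All 4 were female PLX3397 sample 2, the highest of its group for H2-Aa (3667 normalised counts), H2-Ab1 (7961), H2-Eb1 (1719.8) and Ciita (233). The same library had the highest Cd74 value of its group (23206), which did not pass that limit.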

How the results depend on the processing

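Over 28 alternatives, the rise of Cd74 in both sexes and the male falls of H2-DMa and H2-DMb1 kept their calls. Leaving out 1 library at a time gave 3 to 5 of the 9 genes called in males, 1 to 4 in females, 0 to 2 for females against males on PLX3397, and 0 for the other comparisons. Without a filter on low values 1 gene was called in females. For females against males on PLX3397 the count of 2 became 0 with no filter, upper-quartile scaling, quantile normalisation, equal library totals, voom weights, a fit to the groups compared only, or without male control sample 4 and male PLX3397 sample 3. It became 1 with sample number as a block, which changed no count in either sex on PLX3397 against control chow by over 1.5 times. A check for pairing by sample number gave correlations of deviations of -0.0446 to 0.115, over 0.1 in 1 of 24 pairs. Low correlations cannot exclude a pairing, and the labels state none. For females against males on PLX3397, 838 of all genes were higher and 226 lower. Without female PLX3397 sample 2 these counts fell to 537 and 140, or 677 in all. The total fell further without male PLX3397 sample 2 (332) or 3 (469) or female PLX3397 sample 3 (480). In the same comparison 195 were higher and 374 lower with equal library totals, and 246 and 221 with quantile normalisation. For males on PLX3397 against control chow, 815 higher and 1474 lower became 1347 and 916 with equal library totals.

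The sign turned for the values that follow, none of them called. Ciita in males became 0.0658 with equal totals and 0.142 with array weights, its response difference 0.0692 with a pseudocount of 5 and 0.319 without the 2 libraries, its control sex difference -0.0145 without them, and its sex difference on PLX3397 -0.00306 with voom. Cd80 in females became -0.0219 (upper quartile), -0.00943 (quantile) and -0.0953 (voom), and the response difference of H2-Ab1 -0.113 (voom). The control sex difference of Cd86 became -0.0325 (quantile), -0.00372 (equal totals), -0.00626 (voom) and -0.0135 (without the 2 libraries). Leaving out 1 library at a time, Ciita ranged from -0.81 to 0.76 in males, -1.32 to 0.85 in females, -1.23 to 0.93 for the response difference, -0.0145 to 1.55 between sexes on control chow and -0.53 to 1.64 on PLX3397. Cd80 in females ranged from -0.11 to 0.31 and the response difference of H2-Ab1 from -0.42 to 0.62. Sex differences ranged from -0.0135 to 0.0566 for Cd86 and -0.0871 to 0.0690 for H2-DMb1 on control chow, and -0.34 to 0.14 for Cd74 on PLX3397. The cause was not tested.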
